A study of Mus musculus with 5 samples.

Results

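Spermatocytes in leptotene and zygotene, the opening stages of the first meiotic division in the testis, were looked for in single-cell RNA profiles of whole mouse testis. A cell barcode was counted as a member when it carried at least 1 transcript molecule (UMI, a molecule counted once by its tag) of at least 3 of the 6 genes Prdm9, Meiob, Dmc1, Rad51ap2, Hormad1 and Inca1. It also had to carry at most 1 UMI of Stra8 and at most 3 UMIs of Psma8, Gml and Piwil1 together, and to pass limits on quality: no fewer than 1000 UMIs, no fewer than 500 genes, and less than 20% of its UMIs from mitochondrial genes. The members were thus chosen by these measured counts. The rule found 1341 members among the 31764 barcodes that passed those limits in 4 libraries, which is 4.22%. The 5 libraries together held 46451 deposited barcodes.

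The testes came from mice whose spermatogenesis had been synchronized, and were taken each time the epithelium came round to the same stages, VIII-IX, of its cycle, in a series about how Sertoli cells mature. Each library is 1 time: 144 h (EP1), 350.4 h (EP2), 556.8 h (EP3) and 763.2 h (EP4), with a 0 h library labelled Control. The members come from the 4 later times, and the 0 h library lies outside the rule. All 5 groups share the synchronization and the preparation of the whole testis. Strain, age, the means of synchronization and the number of animals behind a library are not given in the labels used here. During the preparation settled tubules were kept and the fluid above them was discarded, which can lower the share of cells from between the tubules.

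The 4 libraries held 96256872 to 118147393 UMIs, and the 0 h library 75578147. Passing barcodes numbered 6702, 4848, 8739 and 11475 from 144 to 763.2 h. Between 11 and 37 barcode sequences were shared by any pair of libraries, and 9 members sat on such a barcode. With 1 library per time there is no spread between replicates and no test: every interval below is a 95% interval that covers counting error only, and differences describe these libraries. Levels are UMIs per 1000000 (CPM) of the UMIs summed over the members of a library, and a gene was counted as higher or lower at a ratio of at least 2 or at most 0.5 when it had at least 50 UMIs over both sums.

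In leptotene the replicated chromosomes condense along a protein axis built on meiotic cohesins, and the SPO11 enzyme cuts the DNA at sites that the histone methyltransferase PRDM9 marks in mouse. In zygotene the recombinase DMC1 helps lead the cut ends to the homologous chromosome, and the synaptonemal complex begins to zip the homologues together. Entry into this programme follows a pulse of STRA8 in the last premeiotic S phase, and the cells that leave it become pachytene spermatocytes, which turn on genes of later germ cells and silence the X and Y chromosomes.

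Promoter sequence is shown for 4 genes of this programme whose level was at least 2-fold higher in the members at 556.8 h than at 350.4 h: Hormad1, Sycp3, Sycp1 and Rad51ap2. In the members under 10000 UMIs, as given below, Hormad1, Sycp3 and Sycp1 were lower at 556.8 h and only Rad51ap2 was higher. RefSeq gave an entry for 11 of 12 genes looked up, with 14 listed starts on build GRCm38.p6. Each line holds the 250 bases before a start, 5′ to 3′ on the gene's strand, and capitals mark matches to any of 3 motifs on either strand. The E-box is CACGTG. An E2F-like motif, TTCCCGC, was searched as well. Read on the opposite strand that motif appears in these lines as GCGGGAA. The MYB motif is AACNGTT, and no marked matches overlap.
Hormad1, + strand, chr3:95559427-95559676: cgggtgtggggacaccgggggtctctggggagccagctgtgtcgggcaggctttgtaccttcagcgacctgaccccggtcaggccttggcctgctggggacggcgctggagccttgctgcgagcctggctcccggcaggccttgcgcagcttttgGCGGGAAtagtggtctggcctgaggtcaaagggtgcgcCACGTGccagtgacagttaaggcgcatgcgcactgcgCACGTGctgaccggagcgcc
Sycp3, + strand, chr10:88459337-88459586: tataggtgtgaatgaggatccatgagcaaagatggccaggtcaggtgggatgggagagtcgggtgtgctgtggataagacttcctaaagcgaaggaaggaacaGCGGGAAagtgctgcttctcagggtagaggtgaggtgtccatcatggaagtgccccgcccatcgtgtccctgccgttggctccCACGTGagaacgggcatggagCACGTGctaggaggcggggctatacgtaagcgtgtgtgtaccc
Sycp1, − strand, chr3:102936101-102936350: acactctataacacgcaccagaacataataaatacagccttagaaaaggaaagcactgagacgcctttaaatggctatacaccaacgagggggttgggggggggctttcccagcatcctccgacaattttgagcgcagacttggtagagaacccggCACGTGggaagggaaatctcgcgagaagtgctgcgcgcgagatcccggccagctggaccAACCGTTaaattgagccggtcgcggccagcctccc
Rad51ap2, + strand, chr12:11455805-11456054: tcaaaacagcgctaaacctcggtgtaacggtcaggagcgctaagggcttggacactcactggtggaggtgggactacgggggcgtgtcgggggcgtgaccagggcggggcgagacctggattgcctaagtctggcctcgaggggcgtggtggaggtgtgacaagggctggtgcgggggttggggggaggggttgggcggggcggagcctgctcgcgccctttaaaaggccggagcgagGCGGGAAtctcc

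The Sycp3 and Hormad1 promoters each hold 2 E-boxes. They begin 64 and 43 bases before the start of Sycp3, and 57 and 20 bases before the first listed start of Hormad1. Sycp1 has an E-box 94 bases and a MYB match 35 bases before its start, and the E2F-like match of Rad51ap2 begins 12 bases before its start. An E-box was present at 4 of the 14 listed starts, against 6.02% of 32851 mouse promoters of the same length. The E2F-like motif was present at 5 of the 14 starts, against 3.82% of promoters, and the MYB motif at 1, against 3.80%. The 2 listed starts of Hormad1 lie 2 bases apart and hold the same matches, so the E-box was found in 3 of 11 genes and the E2F-like motif in 4 of 11. No letters of these motifs were found before the starts of Dmc1, Inca1, Stra8, Ccnb3, Scml2 and Zcwpw1. Of these, Dmc1, Inca1 and Ccnb3 were also at least 2-fold higher over all members at 556.8 h than at 350.4 h. They are not shown, and all 4 genes shown hold a match. A match describes the letters in this window and is no measure of binding.

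The members numbered 39 at 144 h, which is 0.582% of passing barcodes (interval 0.414 to 0.795%), and 263 at 350.4 h, which is 5.42% (4.80 to 6.10%). They numbered 764 at 556.8 h, or 8.74% (8.16 to 9.35%), and 275 at 763.2 h, or 2.40% (2.12 to 2.69%). The order of the shares was 556.8 h, 350.4 h, 763.2 h and 144 h, and no neighbours in that order overlapped in their counting intervals. A rule of 3 genes with at least 1 UMI is met more easily by a deep barcode, and depth differed. Median UMIs of the members were 27049, 19976, 7956 and 7695 from 144 to 763.2 h, against 12684, 6320.5, 6031 and 3075 over all passing barcodes. When every barcode of at least 3000 UMIs was thinned to 3000 before the rule was applied, the shares became 0.787%, 2.16%, 8.69% and 3.78%. Thinning lowers the counts of Stra8, Psma8, Gml and Piwil1 as well, so barcodes beyond the upper limits at full depth can pass. Of the barcodes found after thinning, 6 of 42 at 144 h and 17 of 62 at 350.4 h were also members. At 556.8 h 437 of 654 were, and at 763.2 h 143 of 223. A like share at 144 h therefore stands for mostly other barcodes. After thinning, the share at 350.4 h lay below that at 763.2 h, the reverse of the order without thinning.

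Members also differed in how far inside the rule they sat. Exactly 3 rule genes were seen in 31 of 39 members at 144 h and 198 of 263 at 350.4 h, but in 204 of 764 at 556.8 h and 101 of 275 at 763.2 h. All 6 were seen in 2, 3, 135 and 31 members. Just outside the rule, 111, 341, 442 and 371 barcodes carried 2 of the 6 genes, 29, 87, 56 and 11 carried 2 Stra8 UMIs, and 3, 23, 89 and 34 carried 4 UMIs of Psma8, Gml and Piwil1, in time order.

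Sycp3, a lateral element protein of the synaptonemal complex that the rule did not use, was higher in the members under 10000 UMIs than in the deeper ones. In the members of at least 10000 UMIs Sycp3 stood at 249 CPM (221 to 279.8), 320.5 CPM (305 to 336), 1065 CPM (1025 to 1106) and 661 CPM (624 to 699.7) from 144 to 763.2 h. In the members under 10000 UMIs it stood at 2660.4 CPM (2339.6 to 3013), 1941 CPM (1901 to 1981) and 2751 CPM (2662 to 2841) at 350.4, 556.8 and 763.2 h. Uchl1, which marks spermatogonia, ran the other way: it stood at 924, 531, 89.2 and 159 CPM in the deeper members from 144 to 763.2 h, and at 107, 14.7 and 23.2 CPM in those under 10000 UMIs at the last 3 times. The whole differentiating spermatogonia list, which holds Uchl1, did not show this at 556.8 h. Its medians per barcode there were 838 CPM in the deeper members and 824 CPM in the shallow ones. They were 1258 and 487 CPM at 350.4 h, and 865 and 656 CPM at 763.2 h. At 144 and 350.4 h, 34 and 237 members were deep and 5 and 26 were under 10000 UMIs. At 556.8 and 763.2 h, 140 and 79 were deep and 624 and 196 were under it. Most members at 144 and 350.4 h therefore go against the name of leptotene and zygotene spermatocytes, and they are called members here. Deep members at 763.2 h had a median of 2179 CPM over the 8 synaptonemal complex genes summed per barcode, near the 2097 CPM at 350.4 h. Their upper quartile was higher, at 7442 against 2538 CPM, so the name is in doubt for part of them too. Sycp3 is expressed in pachytene as well, so it does not set the stage of the shallow members. The pachytene or later list had a median of 2613 CPM per barcode in the 26 shallow members at 350.4 h, against 354 CPM on the Stra8 side of the rule and 6699 CPM on its pachytene side, which are defined below. The shallow members stood at 3802 CPM at 556.8 h, against 3124 and 7751 CPM on the same sides, and at 3192 CPM at 763.2 h, against 2547 and 7066 CPM. The shallow members were not matched in depth, with medians of 2289, 7572 and 6974.5 UMIs at 350.4, 556.8 and 763.2 h. The division at 10000 UMIs was chosen after the values were seen. Of the 8 synaptonemal complex genes, 5, 4 and 6 were at least 2-fold lower in the deeper members than in the shallow ones at 350.4, 556.8 and 763.2 h, and none was higher. Over all genes measured, 15.7, 13.7 and 16% were at least 2-fold higher in the deeper members at those times, and 14.1, 5.44 and 12.4% were lower.

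**Figure D1:**
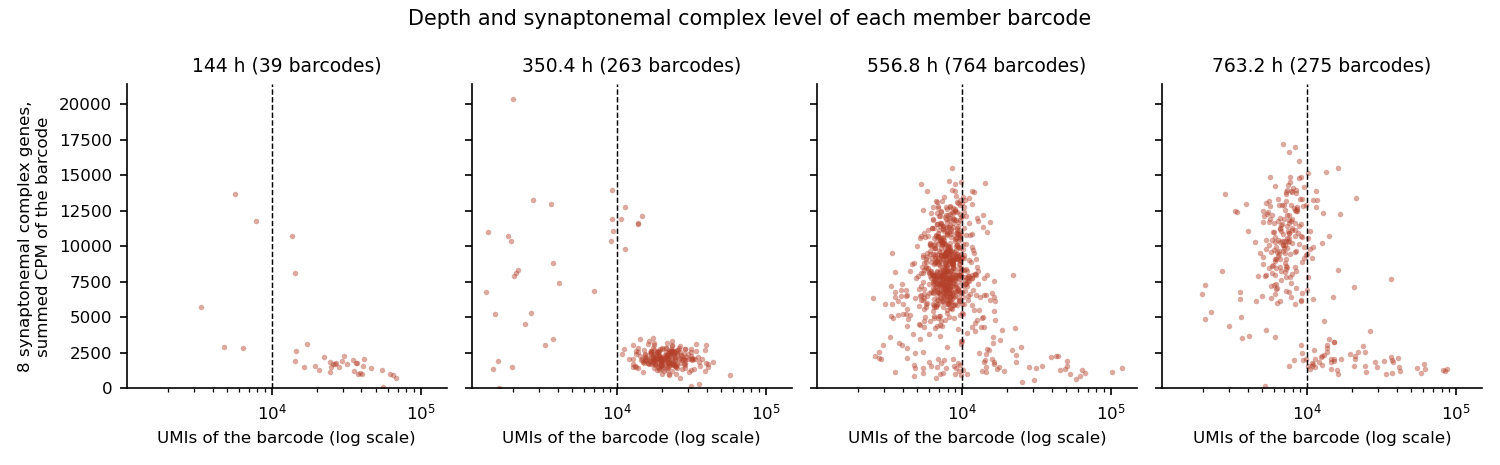
Each point is 1 member, with its UMIs on a log axis and the summed CPM of 8 synaptonemal complex genes on the vertical axis, in a panel per library, and the dashed line stands at 10000 UMIs. At 350.4 h most members, 237 of 263, lie right of the line with a median of 2097 CPM, and at 556.8 h most, 624 of 764, lie left of it with a median of 8174 CPM.

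The scatter of depth against synaptonemal complex level shows this difference over single barcodes, with wide overlap at 556.8 h. The quartiles of the deep members there were 2455 and 8468 CPM. A barcode of few UMIs needs a higher level of the rule genes to be a member, and the part of this in the difference was not tested. The 8 synaptonemal complex genes together had a median of 1665, 2097, 6558 and 2179 CPM in the members of at least 10000 UMIs from 144 to 763.2 h. In the members under 10000 UMIs the medians were 8033, 8174 and 10319 CPM at 350.4, 556.8 and 763.2 h. The quartiles of the shallow members were 4729 and 10953 CPM at 350.4 h, 6735 and 9883 CPM at 556.8 h, and 8168 and 12199.5 CPM at 763.2 h, so their medians lay nearer each other than single barcodes did. A comparison of all members between times therefore mixes these kinds of barcode in different parts, and values for the members under 10000 UMIs are given beside it below.

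The deepest members carried markers of other cells. Among members of at least 25000 UMIs (23, 57, 20 and 20 barcodes in time order), Sycp3 stood at 183, 258, 137 and 175 CPM, and Meiob at 2.17, 2.79, 23.5 and 11.6 CPM. In the same barcodes Uchl1 stood at 979.8, 599, 61.7 and 78.0 CPM, and Prm1, which encodes a protamine of elongating spermatids, at 0, 48.0, 40455 and 8588 CPM. Uchl1 was thus high in the deepest members of the first 2 times, and Prm1 in those of the last 2. At 556.8 h, 16 members gave at least 5% of their UMIs to the elongating spermatid list and held 70.1% of that list's UMIs in all members, and at 763.2 h 4 such members held 58.9%. Scrublet, which scores barcodes for their likeness to simulated doublets, put 91 members (3, 13, 53 and 22) over a score of 0.25. The part of doublets in the deep members was not tested.

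Among the 6 rule genes, Meiob and Rad51ap2 differed most between libraries and Prdm9 least. These levels chose the cells, so they are a description. Prdm9 stood at 26.9 CPM (18.3 to 38.2), 46.1 CPM (40.5 to 52.3), 72.6 CPM (66.5 to 79.1) and 60.5 CPM (52.2 to 69.8) from 144 to 763.2 h. Dmc1, the meiosis-specific recombinase, stood at 57.2 CPM (44.3 to 72.8), 81.0 CPM (73.6 to 89.0), 189.9 CPM (180.0 to 200.3) and 121 CPM (109 to 134). Both were highest at 556.8 h and lowest at 144 h. Meiob, which encodes a single-strand DNA binding protein of meiotic recombination, stood at 19.08 CPM (12.0 to 28.9), 16.5 CPM (13.2 to 20.3), 216 CPM (206 to 227) and 151 CPM (138 to 166). Rad51ap2 stood at 19.08, 13.7, 275 and 219 CPM, so that for both genes the first 2 times were far below the last 2 and their intervals overlapped each other. Hormad1, an axis protein of unsynapsed chromosomes, stood at 85.0, 126, 362 and 372 CPM, and Inca1 at 32.1, 34.7, 150.1 and 102 CPM.

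In the shallow members the rule itself bears on these levels, since a barcode of few UMIs needs a higher level to show 3 of the 6 genes. Prdm9 stood at 85.8 CPM (37.1 to 169), 87.8 CPM (79.5 to 96.8) and 85.5 CPM (70.5 to 103) at 350.4, 556.8 and 763.2 h. Meiob stood at 386 CPM (270.5 to 535), 273 CPM (258 to 288) and 277 CPM (249 to 306), and Dmc1 at 322 CPM (217 to 459), 229 CPM (215 to 243) and 193 CPM (171 to 219). Their intervals overlapped between neighbouring times. Inca1 stood at 182, 183 and 161 CPM, with intervals that overlapped too. Rad51ap2 stood at 193 CPM (114 to 305), 339.6 CPM (323 to 357) and 403 CPM (369 to 438), and Hormad1 at 815 CPM (642 to 1020.5), 428 CPM (409 to 447) and 637 CPM (595 to 681). For those 2 genes no neighbouring intervals overlapped.

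**Figure D2:**
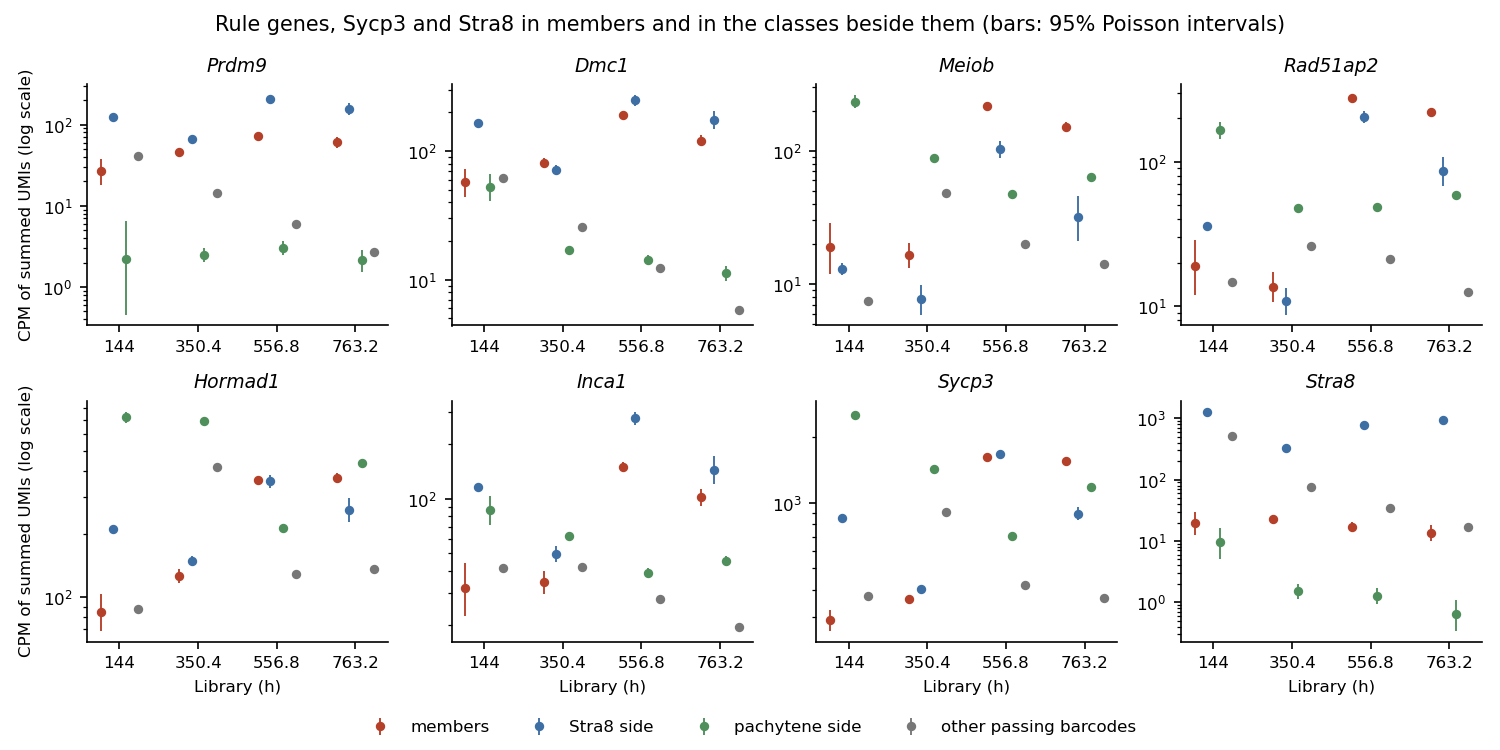
Levels in CPM on a log axis against time in h, in a panel for each of Prdm9, Dmc1, Meiob, Rad51ap2, Hormad1, Inca1, Sycp3 and Stra8, for members, the Stra8 side, the pachytene side and the other passing barcodes, with bars for 95% Poisson intervals. Meiob and Rad51ap2 in members stand near 20 CPM at the first 2 times and above 150 CPM at the last 2.

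The plot of gene levels by time sets the members beside barcodes on either side of the rule. The Stra8 side is made of passing barcodes with at least 3 rule genes, at least 2 Stra8 UMIs and at most 3 late UMIs (1631, 365, 194 and 76 in time order). The pachytene side also has at least 3 rule genes, but at most 1 Stra8 UMI and at least 4 late UMIs (33, 604, 602 and 428), where late UMIs are those of Psma8, Gml and Piwil1 together. The sides were not matched to the members in depth. Median UMIs were 14427, 22970, 8824.5 and 8222 on the Stra8 side and 37078, 53938.5, 16944 and 31202 on the pachytene side. Those of the members were 27049, 19976, 7956 and 7695. A deep barcode meets the limits of either side more easily, and the part of depth in the differences from the sides was not tested. At 556.8 h Prdm9 stood at 72.6 CPM in members, against 207 CPM on the Stra8 side, 3.03 CPM on the pachytene side and 5.92 CPM in the other passing barcodes. Meiob at that time stood at 216 CPM in members, against 102, 47.5 and 20.1 CPM in the same 3 groups. Of these groups the Stra8 side was highest for Prdm9 and the members for Meiob.

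Genes that build the synaptonemal complex and the chromosome axis were mostly higher over all members at the last 2 times than at the first 2. For Sycp3 the level over all members was 290 CPM (259 to 322), 361 CPM (345 to 378), 1627 CPM (1598 to 1657) and 1549 CPM (1505 to 1593) from 144 to 763.2 h. The ratio of 556.8 to 350.4 h was 4.503 (4.29 to 4.73). Sycp1, the transverse filament protein, stood at 657, 988, 2373 and 2290.4 CPM, and Sycp2, a lateral element protein, at 73.7, 165, 860.3 and 698 CPM. Of the 8 genes of the list, 6 were at least 2-fold higher at 556.8 than at 350.4 h and none lower, with a list median of 1.47 on the log2 scale. Over all 11310 genes measured in that pair, 28.4% were at least 2-fold higher and 22.5% at least 2-fold lower, and the median was 0.01.

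The synaptonemal complex genes did not show that difference in the members under 10000 UMIs. Sycp3 was 0.730 times as high at 556.8 as at 350.4 h (0.643 to 0.831), Sycp1 0.881 times (0.787 to 0.990) and Syce3, a central element protein, 1.07 times (0.833 to 1.40). None of the 8 genes was past 2-fold in either direction, with a median of 0.04, where 15.4% of 8355 genes were higher and 7.32% lower. That comparison rests on 26 members at 350.4 h, and for 751 of the 8355 genes their 0 UMIs gave no direction. Between 763.2 and 556.8 h none of the 8 was past 2-fold over all members (median -0.19) or in those under 10000 UMIs (median 0.17). The share of all genes that was higher in that pair was 7.27% over all members and 3.92% in those under 10000 UMIs, and the share lower was 3.74% and 2%.

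Cohesins, the rings that hold sister chromatids together, split into meiotic and mitotic subunits. Of the meiotic subunits, Smc1b stood at 628, 793, 1297 and 1078 CPM and Stag3 at 85.9, 176, 239.6 and 202 CPM from 144 to 763.2 h. Rad21l, a meiotic kleisin, stood at 4.34, 1.69, 22.8 and 16.6 CPM. Rad21, the mitotic kleisin, ran against it at 194, 134, 28.9 and 50.6 CPM. Its ratio of 556.8 to 350.4 h was 0.216 (0.184 to 0.252) over all members and 0.212 (0.103 to 0.506) in those under 10000 UMIs, so the lower level was also present in the shallow members. Of 6 genes on the meiotic cohesin list 2 were higher (Rad21l and Meikin) and 1 was lower (Rec8), over all members in that pair. Meikin and Sgo2a on that list are not cohesin subunits themselves. Of 5 on the mitotic cohesin list, which includes Smc3, a subunit of both kinds, 2 were lower. Over all genes 28.4% were higher and 22.5% lower, so these counts do not set the cohesin genes apart.

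Genes of break formation did not move as a group. Of the 11 on the list, 4 were at least 2-fold higher at 556.8 than at 350.4 h, 4 were lower and 3 lay between, with a median of 0.38, where 28.4% of all genes were higher and 22.5% lower. Spo11, whose product cuts the DNA, stood at 11.3 CPM (6.003 to 19.3), 9.75 CPM (7.28 to 12.8), 117 CPM (109.7 to 126) and 73.6 CPM (64.4 to 83.7) from 144 to 763.2 h, a ratio of 12.0 (9.10 to 16.3) for 556.8 over 350.4 h. Ankrd31, a partner of REC114 in placing breaks, stood at 61.6, 70.5, 278 and 226 CPM. Rec114, which activates break formation with MEI4, ran the other way at 57.2, 60.2, 9.58 and 22.9 CPM, a ratio of 0.159 (0.121 to 0.207) for 556.8 over 350.4 h. In the members under 10000 UMIs Spo11 had a ratio of 0.779 (0.483 to 1.35) and Rec114 of 0.232 (0.0847 to 0.887), and Rec114 was the only gene of 10 measured on the list past 2-fold. Zcwpw1, which reads the histone marks that PRDM9 writes, stood at 219, 281, 490.5 and 329 CPM and lay within 2-fold between neighbouring times.

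Over all members, 6 of 21 strand exchange genes were at least 2-fold higher at 556.8 than at 350.4 h and 5 lower, with a median of -0.22. Those counts are near the shares over all genes, 28.4% higher and 22.5% lower. Hsf2bp, a partner of BRCA2 in meiosis, stood at 28.6, 21.003, 102 and 66.3 CPM, and Spata22, the partner of MEIOB, at 0.867, 1.88, 19.7 and 15.9 CPM from 144 to 763.2 h. In the members under 10000 UMIs 3 of 18 measured were higher, Spata22, Brme1 and Mre11a, and 2 were lower, Exo1 among them, also near the shares of 15.4 and 7.32% over all genes. The 3 higher genes had only 1, 1 and 2 UMIs in the shallow members at 350.4 h. Between 763.2 and 556.8 h none of 19 was past 2-fold in either set.

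Of 12 measured crossover genes 6 were at least 2-fold higher at 556.8 than at 350.4 h and 1 was lower, with a median of 0.78, and of 6 measured telomere attachment genes 3 were higher and none lower. Over all genes 28.4% were higher and 22.5% lower. Hfm1, a helicase needed for crossovers, stood at 13.0, 18.6, 168 and 128 CPM from 144 to 763.2 h, and Msh4 at 5.20, 4.501, 31.1 and 20.4 CPM. Tex11, an X-linked crossover gene, was the lower one and stood at 142, 265, 90.9 and 113 CPM. Terb1, which tethers telomeres to the nuclear envelope, stood at 6.94, 13.7, 145 and 103 CPM, a ratio of 10.6 (8.32 to 13.6) for 556.8 over 350.4 h. Among members under 10000 UMIs the ratio was 1.02 (0.648 to 1.70) for Hfm1, 0.709 (0.410 to 1.34) for Tex11 and 2.34 (1.13 to 5.83) for Terb1.

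Among the genes of meiotic entry, Meioc and Ythdc2, whose products together turn off the mitotic programme, stood at 76.3, 266, 304 and 261 CPM and at 73.7, 150.2, 182 and 172 CPM from 144 to 763.2 h. Dazl, an RNA-binding protein of germ cells, stood at 1036, 1279, 981 and 878 CPM. Between 350.4 and 144 h, 3 of the 8 entry genes were at least 2-fold higher, against 7.27% of 9049 genes, and none was lower, against 7.12%. Between 556.8 and 350.4 h 1 of 8 was higher, against 28.4%, and between 763.2 and 556.8 h none was past 2-fold.

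Several genes of spermatogonia and of DNA replication were higher at 144 and 350.4 h than later. Dmrt1, which holds spermatogonia in the mitotic programme, stood at 238, 198, 5.28 and 43.6 CPM from 144 to 763.2 h, and Kit, the receptor of differentiating spermatogonia, at 41.6, 105, 5.28 and 30.6 CPM. Ccnd1, a cyclin of the G1 phase, stood at 209.9, 298, 11.5 and 58.3 CPM. Of the 8 genes of the differentiating spermatogonia list, 5 were lower at 556.8 than at 350.4 h, against 22.5% of all genes, and 1, Prss50, was higher. Prss50 and Dmrtb1 stood at 460.2 and 298 CPM at 556.8 h, against 187 and 154 CPM at 350.4 h, so these list genes do not follow the others. At 763.2 h, against 556.8 h, 4 of 7 measured were higher (Kit, Sohlh1, Dmrt1 and Uchl1), against 7.27% of all genes, and none of 4 measured was in the members under 10000 UMIs, against 3.92%.

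Of 14 replication genes, 10 were lower at 556.8 than at 350.4 h, against 22.5% of all genes, and none was higher, with a median of -1.60. Mcm2, a subunit of the replicative helicase, stood at 160 CPM at 144 h, 127 CPM at 350.4 h, 8.47 CPM at 556.8 h and 25.5 CPM at 763.2 h. Mcm5, of the same helicase, differed less, at 189, 155, 97.6 and 70.1 CPM. Among members under 10000 UMIs 2 of 10 measured were lower, against 7.32% of all genes. These were Rrm2 and Ung, whose intervals (0.230 to 1.22 and 0.188 to 1.42) hold a ratio of 1, and Mcm5 had a ratio of 0.813 (0.471 to 1.54). Mitosis genes lay mostly between: 2 of 12 were higher and 2 lower at 556.8 than at 350.4 h. Top2a, a topoisomerase of dividing cells, stood at 549.8, 933, 825 and 699 CPM. Dnmt1, the maintenance DNA methyltransferase, stood at 250, 318, 31.9 and 87.3 CPM, and 4 of 5 measured DNA methylation genes were lower at 556.8 than at 350.4 h.

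Transcripts of later germ cells were part of the members' RNA. Ldhc, a lactate dehydrogenase of spermatocytes and spermatids, stood at 3.47, 170.3, 3449 and 3078 CPM from 144 to 763.2 h. All 10 genes of the pachytene or later list were higher at 556.8 than at 350.4 h, against 28.4% of all genes. Prm1 stood at 0, 31.5, 8862 and 4449 CPM in members, against 0, 142, 11561 and 14101 CPM in the other passing barcodes. Barcodes that gave at least 0.5% of their UMIs to Sertoli genes (2515, 594, 106 and 227) held 0, 72.7, 4307 and 6239.5 CPM of Prm1 and 0.490, 624, 2823 and 3595 CPM of Ldhc. The Ldhc level in members was of the same order at the last 2 times and below it at 350.4 h, so their own expression and free RNA cannot be told apart. Dmc1 in the Sertoli-marked barcodes was 5.30, 3.81, 1.88 and 0 CPM and Sycp3 30.6, 131, 125 and 148 CPM, both below the members at every time.

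Of the pachytene or later genes, 5 of 10 were higher at 556.8 than at 350.4 h in the members under 10000 UMIs, against 15.4% of all genes, and Ldhc had a ratio of 3.22 (2.60 to 4.03). The round spermatid genes reached their highest level at 763.2 h: Spaca1, an acrosome protein, stood at 5.20, 21.4, 58.9 and 244 CPM, with a ratio of 4.14 (3.68 to 4.68) for 763.2 over 556.8 h and of 4.21 (3.38 to 5.24) in the members under 10000 UMIs. Of the 6 round spermatid genes, 5 were higher at 763.2 than at 556.8 h, against 7.27% of all genes, and 4 of 5 measured in the members under 10000 UMIs, against 3.92%. An estimate of free RNA from round and elongating spermatid and Sertoli genes took 34.5, 29.5, 77.1 and 30.5% of the members' UMIs from 144 to 763.2 h. The profile subtracted was the summed RNA of all other passing barcodes, Stra8 and pachytene sides included, scaled by those genes. RNA of like cells is thus subtracted as well, and the percentages are no measure of free RNA alone. At 556.8 h, 16 members held 70.1% of the elongating spermatid UMIs used in the scaling. With this estimate subtracted, 15 of 19 list medians for 556.8 over 350.4 h and 14 of 19 for 763.2 over 556.8 h moved by over 1.5-fold. The synaptonemal complex median for 556.8 over 350.4 h was then 2.97 in place of 1.47, the pachytene or later median 7.67 in place of 3.38, and the round spermatid median for 763.2 over 556.8 h 6.69 in place of 2.01. A gene left under 3 counts by the subtraction was set to 3, so these medians can rest on that floor. The round spermatid genes were also among those used in the scaling. The medians after subtraction therefore do not show larger differences between times.

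Markers of somatic cells moved with the times too. The 9 Sertoli genes summed to 1809.9, 216, 231 and 50.0 CPM in members from 144 to 763.2 h, and none of the 9 was at 0 in any library. Members that gave at least 0.5% of their UMIs to these genes were few: 3 at 144 h held 91.0% of the sum, 1 at 350.4 h held 41.4% and 3 at 556.8 h held 68.0%. The 5 Leydig genes summed to 5.20, 52.1, 3.33 and 2.23 CPM, with 3, 0, 3 and 4 of the 5 at 0. The 6 macrophage genes summed to 6.94, 1.31, 3.33 and 2.23 CPM, with 2, 4, 3 and 4 of the 6 at 0. Endothelial genes summed to 1.73 to 2.78 CPM. The 5 peritubular myoid genes summed to 20.8, 50.8, 81.5 and 77.1 CPM, with 0, 0, 0 and 1 of the 5 at 0. Most of that sum at 556.8 h came from Actg2, a smooth muscle actin, at 62.3 CPM, against 2.06 CPM at 350.4 h. Immediate early and heat shock genes, which respond to tissue dissociation, moved with the times as well: the 11 on the list summed to 859, 624, 145 and 109 CPM over all members. Of the 8 measured, 7 were lower at 556.8 than at 350.4 h, with a median of -2.59, where 22.5% of all genes were lower. Fos had a ratio of 0.137 and Jun of 0.144. In the deeper members the sums were 878, 633, 247 and 143 CPM from 144 to 763.2 h, and in those under 10000 UMIs 75.1, 88.5 and 63.0 CPM at the last 3 times. The part of these genes in the differences between times was not tested.

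**Figure D3:**
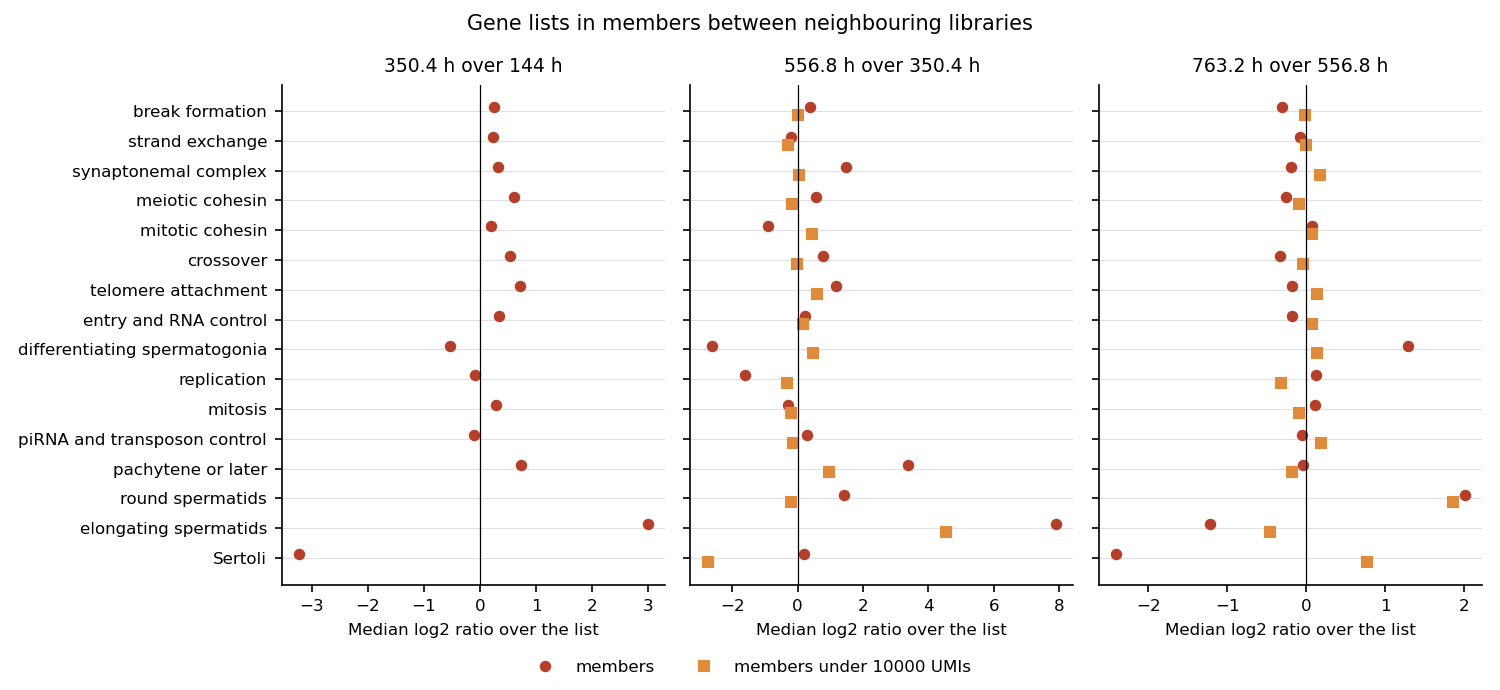
Median log2 ratio of each of 16 gene lists in members between neighbouring times, in a panel for 350.4 over 144 h, 556.8 over 350.4 h and 763.2 over 556.8 h, with circles for all members and squares for members under 10000 UMIs (not drawn in the first panel). In the middle panel the synaptonemal complex list stands at 1.47 over all members and at 0.04 in those under 10000 UMIs.

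The plot of list medians by step sets all members beside those under 10000 UMIs, which are not matched in depth between times. For 350.4 over 144 h the lists of the meiotic programme lay between 0.2 and 0.8, with break formation at 0.26, strand exchange at 0.24 and the synaptonemal complex at 0.31, against a median of 0.08 over all genes. For 556.8 over 350.4 h the replication list stood at -1.60 over all members and at -0.33 in those under 10000 UMIs. For 763.2 over 556.8 h the replication list stood at 0.12 and -0.31, and the round spermatid list at 2.01 and 1.86. For 556.8 over 350.4 h the round spermatid list stood at 1.42 over all members and at -0.20 in those under 10000 UMIs.

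The genes that differed most between neighbouring times were named by the interval bound nearest a ratio of 1. At 350.4 h, against 144 h, they were led by histone genes: Hist1h2ba stood at 133 against 10.4 CPM, a ratio of 12.8 (7.27 to 24.8), and Hist1h2aa at 476 against 58.1 CPM. The histone cluster genes have near-identical copies, so their single counts are uncertain. Nefm stood at 2.25 against 60.7 CPM, Sdc4 at 25.9 against 343 CPM and Ccnd2, a G1 cyclin, at 10.5 against 148 CPM. At 556.8 h, against 350.4 h, genes of later germ cells were among the highest, Akap4 and Odf1 of the sperm tail among them. Oaz3 stood at 339 against 12.4 CPM, a ratio of 27.4 (21.5 to 35.6), Akap4 at 167 against 6.001 CPM and Odf1 at 137 against 8.25 CPM. The lowest were Dmrt1 (0.0267) and Ccnd1 (0.0386), with Crabp1 and Ccng1 among the rest. At 763.2 h, against 556.8 h, Ccnd1 was highest of the genes that met the limits for naming, with a ratio of 5.06 (3.88 to 6.64). Dmrt1, Kit, Rec8 and Catsper3 had larger ratios, 8.27, 5.80, 5.62 and 5.17, but lay below the 50 CPM needed for naming. Tex36 of the round spermatid list and Spag6 of the pachytene or later list had larger ratios too, 6.33 and 5.18. They stood at 178 and 149 CPM at 763.2 h but did not meet all the limits for naming. Cdkn2a, an inhibitor of G1 kinases, stood at 63.1 against 16.2 CPM and Ptma at 1106 against 406 CPM. Sparc stood at 3.504 against 56.1 CPM and Clu, a Sertoli gene, at 18.8 against 99.7 CPM. Among members under 10000 UMIs the only genes named by the same rule for that pair were Rab21, at 60.0 against 9.08 CPM with a ratio of 6.60 (4.49 to 9.84), and Gnas, at 51.0 against 15.8 CPM.

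Against the Stra8 side, of 11 break formation genes in the members at 556.8 h 5 were lower (Rec114, Mei4, Iho1, Mei1 and Atm) and 1, Spo11, was higher, where 10.2% of 10243 genes were higher and 6.72% lower. Rec114 stood at 9.58 CPM in members and 40.9 CPM on the Stra8 side, a ratio of 0.234 (0.167 to 0.328). Spo11 stood at 117 CPM in members and 49.3 CPM on the Stra8 side, a ratio of 2.38 (1.92 to 2.98), so these genes of break formation differed in opposite directions. Rad21l stood at 22.8 CPM in members and 86.5 CPM on the Stra8 side, a ratio of 0.263 (0.211 to 0.329). Of 13 measured replication genes 7 were lower, and of the 8 synaptonemal complex genes only Tex12 was past 2-fold, and lower. Sycp3 stood at 1627 CPM in members and 1671 CPM on the Stra8 side, a ratio of 0.974 (0.936 to 1.01).

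At 763.2 h the same directions held for Spo11, at 73.6 CPM in members and 21.6 CPM on the Stra8 side (ratio 3.41, 2.13 to 5.77), and for Rec114 and Rad21l. There 8 of 13 replication genes were lower, where 7.95% of 8520 genes were higher and 6.06% lower. At 350.4 h almost no gene differed: 2.08% of 10244 genes were higher and 0.332% lower, and none of the synaptonemal complex or replication genes was past 2-fold. At 144 h 4 of 8 synaptonemal complex genes and 5 of 11 break formation genes were lower in members, where 11.3% of 12050 genes were higher and 9.65% lower.

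Against the pachytene side, which was deeper, the members at 556.8 h had more of the genes of breaks, cohesion and replication. Of 11 break formation genes 10 were higher, of 5 genes on the mitotic cohesin list all 5 and of 13 measured replication genes 9. Over all 12421 genes, 39% were higher and 17.7% lower. Zcwpw1 stood at 490.5 CPM in members and 40.2 CPM on the pachytene side, a ratio of 12.2 (11.5 to 13.0), and Mcm5 at 97.6 and 9.88 CPM, a ratio of 9.87 (8.65 to 11.3). Of the 8 synaptonemal complex genes 7 were higher in members, with a median of 1.52, against 0.49 over all genes. At 763.2 h 2 of the 8 were, with a median of 0.50 against 0.27, where 30.8% of 11527 genes were higher and 13.3% lower. At 350.4 h 5 of 8 were lower in members, where 33.5% of 12293 genes were higher and 25.6% lower.

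**Figure D4:**
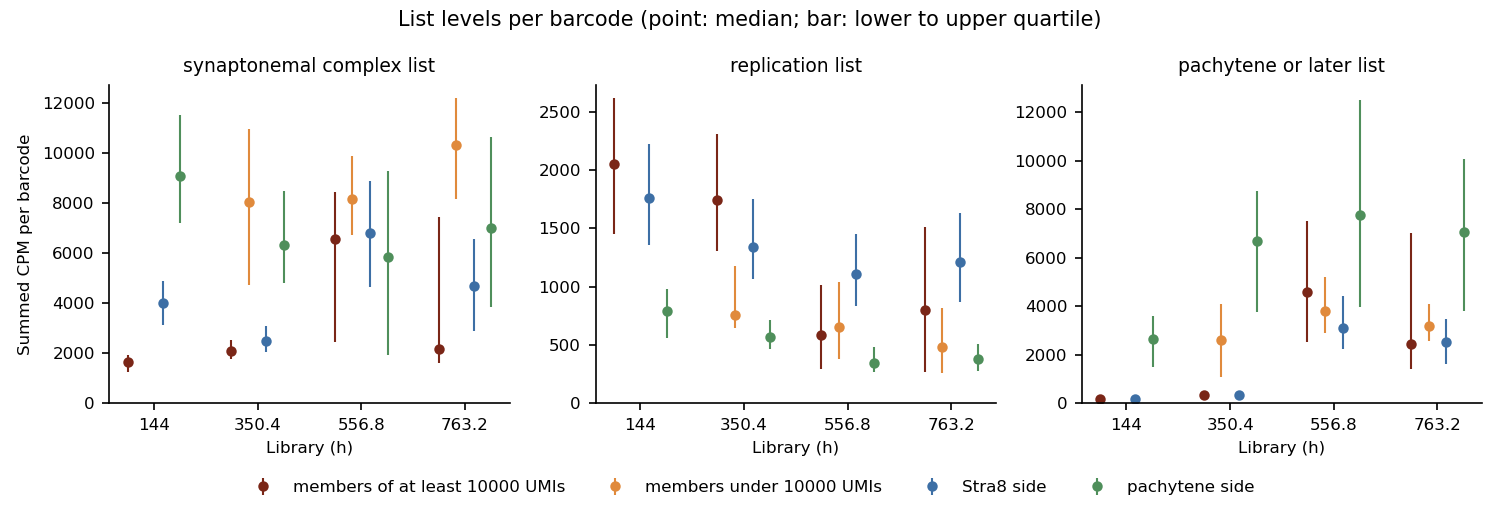
Median and quartiles over barcodes of the summed CPM of the synaptonemal complex, replication and pachytene or later lists, by library, for members of at least 10000 UMIs, members under 10000 UMIs, the Stra8 side and the pachytene side. At 763.2 h the synaptonemal complex median is 2179 CPM in the deep members and 10319 CPM in the shallow ones.

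The plot of list levels per barcode sets both kinds of members beside the Stra8 and pachytene sides. The replication list had a median of 583 CPM in the deep members and 655 CPM in the shallow ones at 556.8 h, against 1107 CPM on the Stra8 side and 349 CPM on the pachytene side. At 763.2 h the medians were 798 and 486 CPM, against 1214 and 376 CPM on the same sides. For that list the medians of the members lay between the sides at both times, but at 350.4 h the deep members stood at 1739.7 CPM, against 1340.0 CPM on the Stra8 side. The synaptonemal complex list was higher in the shallow members than on either side: 8174 CPM at 556.8 h, against 6827 and 5850.1 CPM on the Stra8 and pachytene sides, and 10319 CPM at 763.2 h, against 4675 and 6994 CPM. The deep members at 763.2 h, at 2179 CPM, lay below both sides.

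Within the rule, levels of several genes differed with the Stra8 and late UMIs of a member. These groups are cut on the genes that the rule limits, and Prdm9 and Dmc1 are rule genes. The levels are thus a description of the selected members and no test of an order of stages. At 556.8 h Prdm9 stood at 124 CPM in the 123 members with 1 Stra8 UMI, at 85.4 CPM in the 149 with none of Stra8 or of the late genes, and at 56.3 CPM in the 492 with 1 to 3 late UMIs. Zcwpw1 followed the same order at 848, 504 and 400.0 CPM, Rad21l at 45.4, 24.5 and 16.8 CPM and Mcm5 at 160.2, 94.5 and 83.4 CPM. Spo11 stood at 118, 104 and 121 CPM and Sycp3 at 1767, 1330.1 and 1685 CPM, so neither followed that order. The median depths of these members were 8208, 7420 and 8103 UMIs. At 763.2 h Prdm9 stood at 119, 73.4 and 44.1 CPM and Rad21l at 31.3, 24.5 and 11.5 CPM in the same order, while Dmc1 stood at 141, 205 and 98.7 CPM. Rad21l had only 52 UMIs over all members at 763.2 h, so its order there is uncertain. At 350.4 h Mcm5 stood at 146, 165 and 162 CPM and Prdm9 at 49.8, 51.8 and 38.5 CPM, so the order did not hold there.

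The share of UMIs from X-linked genes, which the rule did not use as such, had a higher median in the members than on the pachytene side. At 556.8 h the quartiles overlapped, at 1.58 and 2.15% in members and 0.0336 and 1.67% on the pachytene side. The median share was 2.11, 2.11, 1.91 and 1.97% in members from 144 to 763.2 h, against 0.458, 0.0905, 0.567 and 0.194% on the pachytene side. On the Stra8 side it was 2.61, 2.25, 1.89 and 2.02%, close to the members at the last 2 times. For members under 10000 UMIs the median was 1.04% at 350.4 h, with quartiles of 0.310 and 2.12%, and 1.92 and 2.002% at 556.8 and 763.2 h. The few shallow members at 350.4 h thus spread from the level of the pachytene side to that of the Stra8 side.

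**Figure D5:**
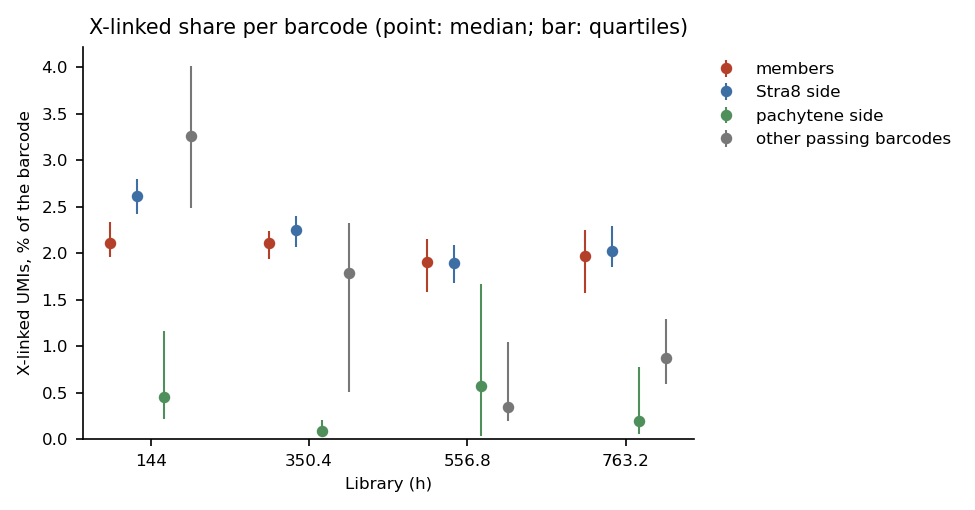
Median and quartiles over barcodes of the share of UMIs from 1084 X-linked features, in percent, by library, for members, the Stra8 side, the pachytene side and the other passing barcodes. Medians of the members stand at 1.91 to 2.11% and those of the pachytene side at 0.0905 to 0.567%.

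The plot of X-linked shares puts the median of the members nearer that of the Stra8 side than that of the pachytene side in every library. Leading genes against all other passing barcodes of the same library were named from the 3 libraries with at least 50 members. Among them were Dmc1 and Prdm9 of the rule, genes of DNA synthesis or the cell cycle (Atad5, Mcm4, E2f1, Prim1, Dck, Fbxo5 and Melk), the histone genes Hist1h1a, Hist1h1c and Hist1h2bm, and Elavl2 and Fam90a1b. Atad5, which unloads the replication clamp, was higher in members by ratios of 3.04, 10.0 and 13.9 at 350.4, 556.8 and 763.2 h, and Elavl2, an RNA-binding protein, by 2.93, 6.87 and 8.08. Over all genes measured, 6.94, 10.8, 25.8 and 28% were at least 2-fold higher in members than in the other passing barcodes from 144 to 763.2 h, and 15.2, 27.5, 16.5 and 15.1% were lower. The synaptonemal complex list had 3 of 8 genes lower at 350.4 h, but 7 of 8 higher at 556.8 h and 5 of 8 at 763.2 h. Since the rule chose these barcodes on their counts, the ratios describe the selection and are no test.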

How the data were processed

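Single-cell RNA was measured in 5 libraries of whole testis, 1 per time. The deposited matrices hold whole-number counts of UMIs per gene and barcode, made by the authors with Cell Ranger 3.0.2, per the file headers. Per the submitters' processing notes the build was mm10 and Seurat 4.3.0.1 was among the tools, with its role not given. Only the counts were used, and doublet removal before deposit is not given in the sources used here.

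Counts were summed over the barcodes of a class and divided by the class total (CPM). Levels have exact Poisson, ratios exact conditional binomial and shares Clopper-Pearson 95% intervals. A count of 0 was replaced by 3 counts in ratios, which are then bounds. Where such a bound lay on the side away from the 0 it gave no direction, and the gene was neither called nor used in a median. Genes with under 50 UMIs over both of a pair were left out of list counts. The members and gene lists were chosen with earlier results of these data known. Lists of markers cover germ and somatic cells of the testis.

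Named genes were the 15 leading genes by the lowest interval bound over libraries. They were also up to 8 each way between neighbouring times, or against each side, by the bound nearest 1, with mitochondrial, ribosomal protein, haemoglobin and unnamed gene models left out. Between times a named gene needed 50 UMIs and 50 CPM in the higher library, a level in members at least that of the other barcodes, and an interval wholly past 2-fold. Some list genes are filed under older symbols in the deposited tables, such as Iho1 (Ccdc36) and Terb1 (Ccdc79), and Rnf212b and Speedya were not matched. Genes of a list were named in the account of that list, and a few genes that these rules name are not reported here.

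Scrublet in scanpy 1.11.5 (expected rate 0.08) made almost no automatic calls in most libraries, so a score of 0.25 was used as an alternative and no barcode was removed from the members. Python 3.11.15, numpy 2.4.6, scipy 1.17.1, pandas 2.3.3 and matplotlib 3.10.9 were used. The ratio step was tested on simulated data: intervals held the true ratio for 96, 96.0 and 95.5% of 9025, 11295 and 10676 genes in the 3 pairs of neighbouring times. The simulated counts were Poisson, as the intervals assume. That check therefore covers the computation only, and not the spread between barcodes or libraries. Alternatives covered limits on barcodes, the number of rule genes, thinning, doublet scores, scaling, low counts and free RNA.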

Additional observations from a re-analysis of the deposited data

Results flagged for a closer look

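The 0 h library lies outside the rule, yet 28 of its barcodes met the same limits. Among those of at least 25000 UMIs, 22 barcodes, Sycp3 stood at 164 CPM and Uchl1 at 722 CPM.

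List medians of members over the other passing barcodes of the same library had opposite signs in different libraries, and the difference between libraries was not tested. The log2 median of the synaptonemal complex list was 1.92 at 556.8 h and -0.79 at 350.4 h. For the crossover list it was 2.16 at 556.8 h and -0.80 at 350.4 h, and for the telomere attachment list 1.33 and -1.17 at the same times. For the undifferentiated spermatogonia list it was -0.86 at 763.2 h and 2.32 at 144 h. The list of piRNA and transposon control stood at -1.35 at 350.4 h and 0.705 at 144 h, and the Leydig list at 0.81 at 350.4 h and -4.395 at 144 h.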

How the results depend on the processing

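No paired analysis was possible because each time is 1 library, and no replicate could be left out. With at least 4 rule genes the shares of members were 0.119, 1.34, 6.41 and 1.52% from 144 to 763.2 h. From barcodes of at least 3000 UMIs they were 8.59, 10.1 and 4.54% at 350.4, 556.8 and 763.2 h. Thinned to 3000 UMIs they were 2.16% at 350.4 h and 3.78% at 763.2 h, and under 10% mitochondrial UMIs 7.80% at 556.8 h and 2.09% at 763.2 h. Counts of genes at least 2-fold higher and lower were 658 and 644 for 350.4 over 144 h, 3216 and 2541 for 556.8 over 350.4 h, and 776 and 399 for 763.2 over 556.8 h. With genes of at least 1 UMI they were 1291 and 2926, 5180 and 4263, and 2749 and 1382. With the estimate of free RNA given above subtracted they were 1010 and 523, 1881 and 2737, and 2499 and 1148. More genes were then lower than higher in the second pair. In members with neither Stra8 nor late UMIs, 1855 were higher and 1315 lower in the second pair and 194 higher and 398 lower in the third. In members under 10000 UMIs the counts were 1290 and 612 in the second pair and 351 and 179 in the third. Neither of those last settings gave a value for 350.4 over 144 h, with 3 and 5 such members at 144 h. In members under 10000 UMIs log2 ratios turned for 556.8 over 350.4 h: -0.24 for the rule genes, -1.23 for the genes of the Stra8 and late limits, -0.20 for round spermatids and 0.48 for differentiating spermatogonia. For 763.2 over 556.8 h they turned to 0.78 for the Sertoli list, -0.16 for Cdkn2a and 0.78 for Clu. In members with neither Stra8 nor late UMIs they turned to -0.029 for differentiating spermatogonia and 0.85 for Clu. The cause was not tested, beyond the smaller number of members. Keeping only the members under 10000 UMIs, and leaving out barcodes found in more than 1 library, were chosen after seeing the data. Of the list medians, 5 of 23, 24 of 25 and 17 of 23 moved by over 1.5-fold under some alternative in the 3 pairs. Depth limits the first library most, where the members gave 1153086 UMIs.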
